A study of Mus musculus with 3 samples.

Results

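Fibroblast growth factor (FGF) signalling was examined through 35 genes, which covered the FGF ligands, the receptors Fgfr1 to Fgfr4 and Fgfrl1, and 8 feedback and target genes (Dusp6, Spry1, Spry2, Spry4, Spred1, Spred2, Etv4 and Etv5). They were taken by gene symbol and had 55 of the 55681 probes on the array that are not controls. Of the 35 genes, 22 were ligands, 5 receptors and 8 feedback or target genes. Only probes with a spot well above background on 2 or more of the 3 arrays, counted within a channel, were kept, which left 42 of the 55 probes and 29 of the 35 genes, among 23554 genes and other transcripts tested.

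The RNA came from mouse embryos at E8.75 (embryonic days) and was hybridised as 3 pairs, 1 pair to each 2-colour array. In every pair the RNA labelled Brpf1-deficient was in the Cy5 (red) channel and the RNA labelled wild-type in the Cy3 (green) channel. Brpf1 encodes a chromatin scaffold protein of histone acetyltransferase complexes. The embryos received no treatment. The sources used here do not give the allele, the strain, a Cre line, the sex, the dissected parts or the number of embryos in an RNA sample. No array had the dyes turned round, so dye and genotype cannot be told apart, and a ratio below is that of the Cy5 channel over the Cy3 channel. Nothing states that the RNA samples came from separate litters, so p-values measure the spread between these 3 pairs only, which may in part be technical.

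FGF ligands are mostly secreted proteins that bind receptor tyrosine kinases together with heparan sulfate and activate the RAS and ERK kinase cascade. Signalling cells then express inhibitors of the same cascade, among them the ERK phosphatase Dusp6 and the Sprouty and Spred proteins, and the ETS transcription factors Etv4 and Etv5, so that these genes are commonly read as a record of FGF activity. At the stage sampled, known sources of FGF include the tail bud, the boundary of midbrain and hindbrain, the anterior neural ridge and the pharyngeal and cardiac region.

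The ligands, receptors and feedback genes gave 0 of 29 genes past an adjusted p of 0.05 (limma, moderated test against a log2 ratio of 0, Benjamini-Hochberg adjustment over all genes), against 1.38% of all genes tested (0 members higher in Cy5, against 1.29%, and 0 lower, against 0.0934%). Among genes with a mean log2 intensity of at most 17, a range that held every member (highest 14.68), the share past the threshold was 0.2%. At an unadjusted p under 0.05 there were 2 members, the intracellular factor Fgf13 (log2 ratio 0.37 ± 0.10, SE) and the ligand Fgf22 (-0.36 ± 0.13), that is 6.897% of the members, against 17.3% of all genes. The Fgf22 probe passed the filter through Cy3 alone, where it was the brighter, so its ratio is against a Cy5 level that was not well above background. The members' mean log2 ratios lay between -0.56 (Fgf4) and 0.37 (Fgf13), with standard errors between 0.08 and 0.27 over 3 pairs. The 95% confidence interval included 0 for 27 of the 29 genes, and its outermost limits over the members were -1.25 (Fgf4) and 0.76 (Fgf1). In bulk embryo RNA, fewer cells expressing a gene and less RNA in each cell cannot be told apart.

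**Figure D1:**
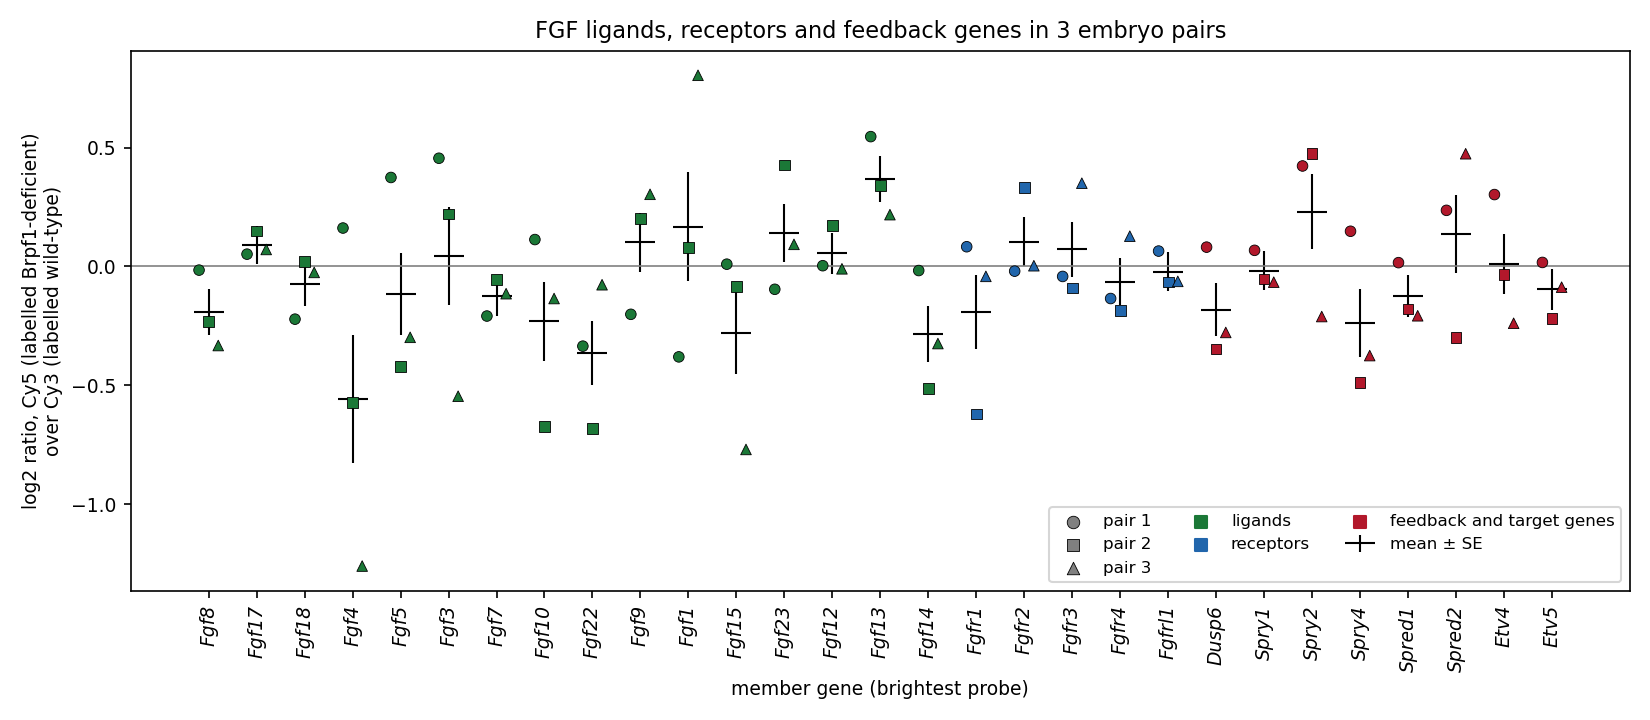
Log2 ratio of Cy5 (labelled Brpf1-deficient) over Cy3 (labelled wild-type) for the brightest probe of each of the 29 genes kept. Symbols are the 3 pairs and the bars the mean with its standard error; Fgf4 reaches -1.26 in pair 3, and the 3 pairs of Fgf13 all lie above 0.

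Promoter sequences of 5 members are shown because the results below set the feedback genes Dusp6, Spry1 and Spred1 beside a ligand with a large spread over pairs, Fgf4, and the receptor Fgfrl1, which held a motif of the ETS factors. The windows run from 250 bases before to 50 after the gene's start, from RefSeq on GRCm38.p6, 5′ to 3′ on the gene's strand. Capitals mark CCGGAAGT. They are chr10:99262981-99263280 (+) for Dusp6, chr3:37639697-37639996 (+) for Spry1, chr2:117120821-117121120 (+) for Spred1, chr7:144861136-144861435 (+) for Fgf4 and chr5:108693979-108694278 (+) for Fgfrl1.
Dusp6: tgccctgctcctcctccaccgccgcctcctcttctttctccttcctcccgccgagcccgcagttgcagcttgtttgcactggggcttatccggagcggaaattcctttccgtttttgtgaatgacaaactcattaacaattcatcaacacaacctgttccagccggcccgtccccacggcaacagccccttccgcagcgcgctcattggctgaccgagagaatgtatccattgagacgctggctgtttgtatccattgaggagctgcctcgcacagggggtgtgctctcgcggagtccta
Spry1: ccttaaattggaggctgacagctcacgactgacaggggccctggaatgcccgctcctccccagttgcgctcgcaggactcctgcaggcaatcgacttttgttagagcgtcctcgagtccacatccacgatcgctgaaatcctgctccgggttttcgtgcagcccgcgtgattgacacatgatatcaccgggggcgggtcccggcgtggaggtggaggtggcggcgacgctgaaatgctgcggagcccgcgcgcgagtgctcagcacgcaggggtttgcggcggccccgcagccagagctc
Spred1: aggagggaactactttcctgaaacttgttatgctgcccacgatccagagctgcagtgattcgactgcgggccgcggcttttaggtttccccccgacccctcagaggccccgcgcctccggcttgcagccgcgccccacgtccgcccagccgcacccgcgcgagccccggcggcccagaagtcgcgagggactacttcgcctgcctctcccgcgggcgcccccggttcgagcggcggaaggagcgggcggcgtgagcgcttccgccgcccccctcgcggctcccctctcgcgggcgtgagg
Fgf4: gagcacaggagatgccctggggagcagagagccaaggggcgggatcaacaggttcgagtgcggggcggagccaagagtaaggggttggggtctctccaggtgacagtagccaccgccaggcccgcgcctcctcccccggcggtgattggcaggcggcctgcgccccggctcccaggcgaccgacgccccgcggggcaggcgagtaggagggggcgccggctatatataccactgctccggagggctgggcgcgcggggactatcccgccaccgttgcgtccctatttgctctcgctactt
Fgfrl1: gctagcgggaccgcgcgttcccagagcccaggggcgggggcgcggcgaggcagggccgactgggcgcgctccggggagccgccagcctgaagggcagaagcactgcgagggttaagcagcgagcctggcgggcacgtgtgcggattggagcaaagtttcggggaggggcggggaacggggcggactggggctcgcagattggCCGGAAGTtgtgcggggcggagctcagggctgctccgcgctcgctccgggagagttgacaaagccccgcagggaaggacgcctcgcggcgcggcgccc
The RefSeq table matched 26 of the 35 genes. Fgf1, Fgf8, Fgf15, Fgf16, Fgf17, Fgf20, Fgfr1, Spry4 and Etv4 had no promoter in it and were not searched. Both strands were searched for the ETS motifs CCGGAAGT and CAGGAAGT, held by 3.89% and 3.33% of the 32851 promoters in the table, and for the cyclic AMP response element TGACGTCA, held by 1.79%. Among the 26 matched members, counted by gene, Fgfrl1 alone held one of these motifs, CCGGAAGT at position -48 relative to the start. Either ETS motif was held by 7.07% of all promoters. That share is counted by promoter, and some members had several promoters, so the units differ. A match describes letters in this window, not a bound site, and the absence of one says nothing about binding elsewhere.

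The FGF8 subfamily of ligands (Fgf8, Fgf17 and Fgf18) is known in the mouse embryo from the tail bud and the midbrain-hindbrain boundary. Its spots were well above background in both channels of every array, with Fgf17 dimmer than Fgf8 and Fgf18. Fgf8 had 4558, 4082 and 3409 in Cy5 (pairs 1 to 3), against 4607, 4791 and 4293 in Cy3. The channels were nearly equal in pair 1, Cy5 was the dimmer in pairs 2 and 3, and the ranges of the channels overlapped. Its log2 ratios of -0.02, -0.23 and -0.33 averaged -0.19 ± 0.10 (SE, n = 3 pairs; 95% interval -0.44 to 0.05; adjusted p = 0.366). The other Fgf8 probes averaged 0.08 and -0.15, on both sides of 0. Fgf17 had 677, 744 and 763 in Cy5, against 653, 671 and 726 in Cy3, a mean log2 ratio of 0.09 ± 0.08 (adjusted p = 0.570). Cy5 was the brighter channel of Fgf17 in each pair by a small margin, and the ranges overlapped. Fgf18 averaged -0.08 ± 0.09 (adjusted p = 0.683), and its second probe -0.11.

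Of the FGF4 subfamily (Fgf4, Fgf5 and Fgf6), Fgf4, a ligand of the primitive streak and tail bud that acts there with Fgf8, had the lowest mean of all members. Its intensities were 801, 492 and 391 in Cy5, against 716, 733 and 938 in Cy3. Cy5 was slightly the brighter in pair 1 and clearly the dimmer in pairs 2 and 3. The log2 ratios of 0.16, -0.57 and -1.26 averaged -0.56 ± 0.27 (95% interval -1.25 to 0.13; adjusted p = 0.354), and with 1 pair left out the mean lay between -0.92 (without pair 1) and -0.21 (without pair 3). Fgf5, a ligand of the epiblast and later of hair follicles, had 270, 159 and 165 in Cy5, against 209, 213 and 202 in Cy3. Its Cy5 spot was well above background in 1 pair and its Cy3 spot in 3, and its log2 ratio averaged -0.11 ± 0.17 (adjusted p = 0.754). Fgf6, a ligand of developing muscle, was not kept.

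In the FGF7 subfamily (Fgf3, Fgf7, Fgf10 and Fgf22), the ligands known for signalling through epithelial receptor forms, no gene passed the threshold. Fgf3, a ligand of the hindbrain, otic region and tail bud, had 1050, 999 and 578 in Cy5, against 766, 857 and 845 in Cy3. Cy5 was the brighter in pairs 1 and 2 and the dimmer in pair 3, with log2 ratios of 0.46, 0.22 and -0.55 (mean 0.04 ± 0.20; adjusted p = 0.927). Fgf10, a ligand of the second heart field and later of lung and limb buds, had 1548, 916 and 1154 in Cy5, against 1431, 1460 and 1268 in Cy3. Pair 2 stood apart with a log2 ratio of -0.67, beside 0.11 and -0.13 in pairs 1 and 3 (mean -0.23 ± 0.16; adjusted p = 0.495).

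The Fgf10 probe was printed in 10 spots on each array, so the spread of its single spots could be set beside that between pairs. The SD of the log2 ratio over its single spots was 0.03, 0.13 and 0.06 in pairs 1 to 3. The SD between the pairs, taken on the mean over spots of each array, was 0.40. For the Fgfr2 probe printed in 10 spots these values were 0.05, 0.03 and 0.05, against 0.16. The other probes of members printed in 10 spots, of Fgf2 and Fgf12, were not kept. Their single-spot SDs were 0.14 to 0.28 and 0.12 to 0.14, and their SDs between pairs 0.08 and 0.09. A mean over spots varies less than a single spot, so these SDs are not like for like and their order shows no excess of error on the array.

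In Cy5, the spots of Fgf7 and Fgf22 were well above background on 0 of 3 arrays. Fgf7, a mesenchymal ligand, had 138, 177 and 152 in Cy5, against 160, 184 and 165 in Cy3 (log2 ratio -0.13 ± 0.08, 95% interval -0.33 to 0.08, adjusted p = 0.458). Fgf22, a ligand known from synapse formation, had 149, 130 and 147 in Cy5, against 188, 209 and 155 in Cy3 (-0.36 ± 0.13; 95% interval -0.71 to -0.02; adjusted p = 0.271). The Cy3 spot of Fgf22 was well above background on 2 arrays, and its ranges in the channels did not overlap. The other Fgf22 probe was well above background on no array and was not kept (log2 ratios -0.38, 0.16 and 0.03 in pairs 1 to 3). For both genes the Cy5 level is known only as not well above background, so the log2 ratios above are not measured folds. Without pair 2 the Fgf22 log2 ratio was -0.21.

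Fgf9, a ligand of several mesenchymal and epithelial sites, had 1061, 1847 and 1881 in Cy5, against 1220, 1607 and 1524 in Cy3 (log2 ratio 0.10 ± 0.12, adjusted p = 0.691). Fgf1, which lacks a signal peptide and binds all FGF receptors, had 541, 497 and 856 in Cy5, against 705, 470 and 490 in Cy3. Cy5 of Fgf1 was the dimmer in pair 1 and the brighter in pair 3, and the log2 ratio averaged 0.17 ± 0.23 (adjusted p = 0.726). Another Fgf1 probe, well above background on no array, was not kept. Fgf2, Fgf16 and Fgf20, the remaining members of these subfamilies, were not kept.

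Among the endocrine FGFs, Fgf15, the mouse counterpart of human FGF19 and a known product of the neural tube and pharyngeal region, had 4681, 4826 and 2748 in Cy5, against 4650, 5113 and 4686 in Cy3. Cy5 and Cy3 were close in pairs 1 and 2, and Cy5 was the dimmer in pair 3 (log2 ratio -0.77). The mean was -0.28 ± 0.17 (adjusted p = 0.440), and with 1 pair left out it lay between -0.43 (without pair 1) and -0.04 (without pair 3). Fgf23, a phosphate-regulating hormone of bone, had 5367, 9223 and 7985 in Cy5, against 5737, 6859 and 7487 in Cy3 (0.14 ± 0.12, adjusted p = 0.572). This came from 1 Fgf23 probe, well above background in both channels of every array, whereas the other Fgf23 probe was well above background on none. The liver hormone gene Fgf21 was not kept.

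Fgf3, Fgf4 and Fgf15 are neighbours on chromosome 7 in the RefSeq gene table, with 0 protein-coding genes between Fgf3 and Fgf4 and 0 between Fgf4 and Fgf15. In pair 3 their log2 ratios were -0.55, -1.26 and -0.77, the lowest value of each gene over the pairs. In pair 1 they were 0.46, 0.16 and 0.01. Fgf6 and Fgf23, also adjacent, on chromosome 6, had 1 gene kept, as did Fgf2 and Spry1 on chromosome 3, which have 2 protein-coding genes between them. Spry4 and Fgf1 on chromosome 18, also with 2 between them, were both kept, and in pair 3 their log2 ratios were -0.38 and 0.80.

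The intracellular FGF homologous factors (Fgf11 to Fgf14) are not secreted and are known as partners of voltage-gated sodium channels. Fgf13 had 638, 566 and 583 in Cy5, against 437, 447 and 501 in Cy3. Each Cy5 value was above each Cy3 value, and the log2 ratios of 0.55, 0.34 and 0.22 averaged 0.37 ± 0.10, a ratio of 1.29 (95% interval of the log2 ratio 0.12 to 0.62; unadjusted p = 0.0124, adjusted p = 0.192). The second Fgf13 probe, dimmer at 171, 168 and 166 in Cy5 against 178, 169 and 168 in Cy3, averaged -0.03. Its Cy5 spot was well above background in 1 pair and its Cy3 spot in 3. Fgf14 had 288, 246 and 245 in Cy5, against 292, 351 and 307 in Cy3, ranges that did not overlap (-0.28 ± 0.12, adjusted p = 0.309), but its second kept probe averaged 0.09. Fgf12 averaged 0.06 ± 0.08 (adjusted p = 0.759), with its Cy5 spot well above background in 1 pair and its Cy3 spot in 3. Fgf11 was not kept.

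The 3 genes without overlap between channels (Fgf13 with the brighter Cy5, Fgf14 and Fgf22 with the brighter Cy3) were 3 of 29 members, against 19.7% of all genes. Fgf22 was kept through Cy3 alone, so its place among them is not independent of the filter. Fgf2, Fgf6, Fgf11, Fgf16, Fgf20 and Fgf21, the 6 genes not kept, had 8 probes, of which 5 were well above background in neither channel of any array. For these genes the signal was too dim for a ratio to be given.

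**Figure D2:**
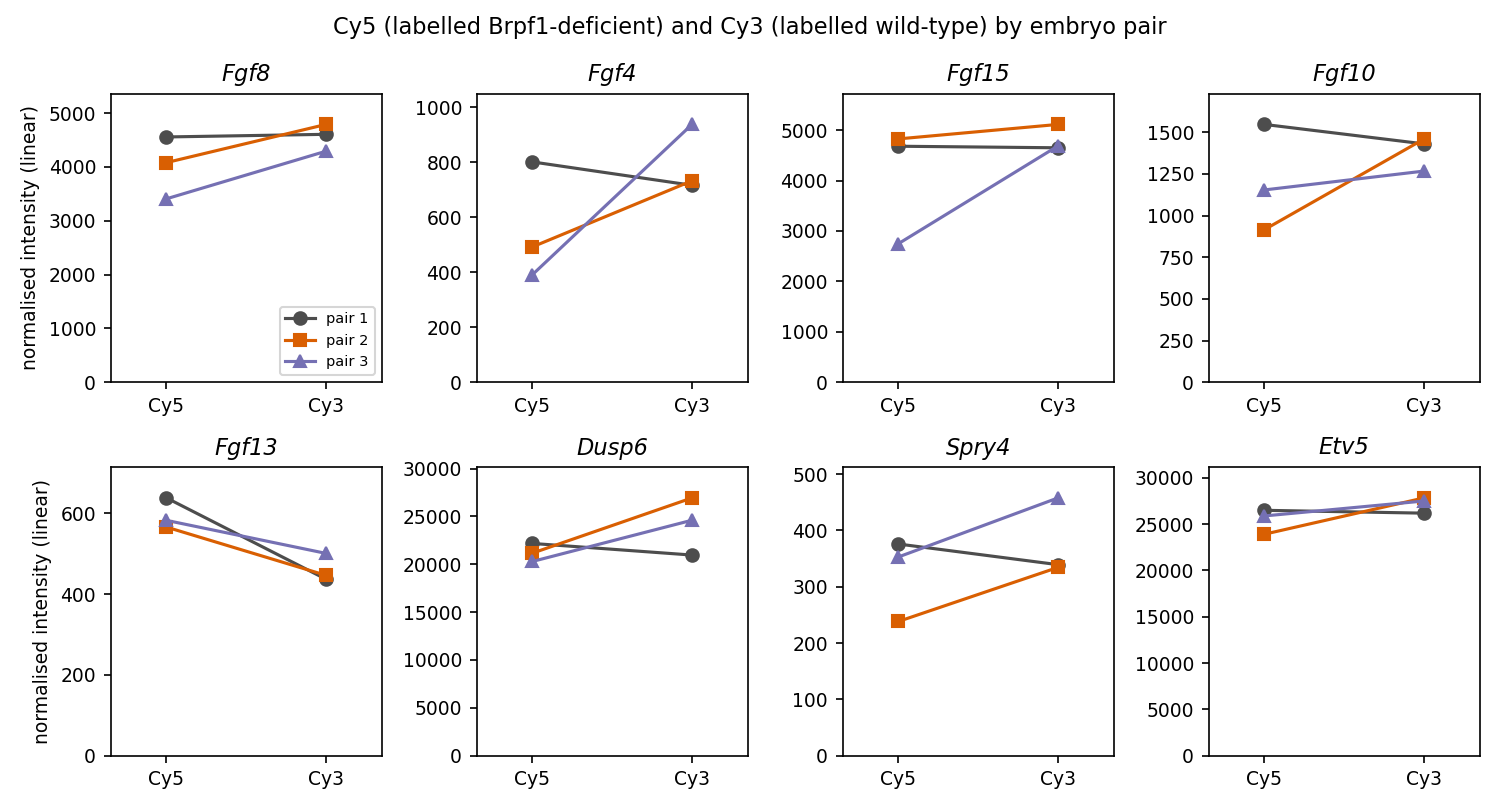
Normalised intensity (linear scale) in Cy5 (labelled Brpf1-deficient) and Cy3 (labelled wild-type), with a line joining the channels of each of the 3 pairs, for selected members. Lines of Fgf13 run the same way in every pair, while those of Fgf4 and Dusp6 change direction between pair 1 and pairs 2 and 3.

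The receptors gave 0 of 5 genes past the threshold. Fgfr1, the receptor most needed in mesoderm of the gastrulating mouse, had 13312, 9473 and 11284 in Cy5, against 12568, 14571 and 11615 in Cy3. Cy5 was the dimmer mainly in pair 2, with log2 ratios of 0.08, -0.62 and -0.04 (mean -0.19 ± 0.16; adjusted p = 0.545), and the other Fgfr1 probes averaged 0.05 and 0.18. Fgfr2, whose splice forms divide epithelial from mesenchymal signalling, had 3202, 4606 and 3274 in Cy5, against 3246, 3662 and 3267 in Cy3. Only pair 2 showed a gap between its channels, and the mean was 0.10 ± 0.10 (adjusted p = 0.623), with 0.17 for the second probe.

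Fgfr3, known for restraining growth of cartilage, had 8035, 5819 and 8383 in Cy5, against 8273, 6200 and 6576 in Cy3 (0.07 ± 0.12, adjusted p = 0.770). A second, dimmer Fgfr3 probe had 596, 1159 and 469 in Cy5, against 380, 287 and 701 in Cy3. Its log2 ratios of 0.65, 2.01 and -0.58 were far more spread than those of the bright probe and had both signs. Fgfr4, a receptor of endoderm and muscle precursors, had 4240, 2530 and 4260 in Cy5, against 4656, 2876 and 3900 in Cy3 (-0.06 ± 0.10, adjusted p = 0.757; second probe 0.19). Fgfrl1, which lacks the kinase domain, had 6423, 6010 and 4752 in Cy5, against 6142, 6292 and 4963 in Cy3 (-0.02 ± 0.08, adjusted p = 0.909), with its 95% interval from -0.23 to 0.19. The receptor ratios were thus small beside their spread, and the channels overlapped for all 5 genes.

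Ratios depended on the probe for several genes. Of the 10 members with more than 1 kept probe, 5 (Fgf8, Fgf13, Fgf14, Fgfr1 and Fgfr4) had probe means on both sides of 0, and 5 (Fgf18, Fgfr2, Fgfr3, Spred1 and Etv4) had them on the same side. The dimmer Fgf13 probe was well above background in Cy5 on 1 array only, so the place of Fgf13 here rests on a dim ratio. Which transcripts each probe detects was not tested.

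**Figure D3:**
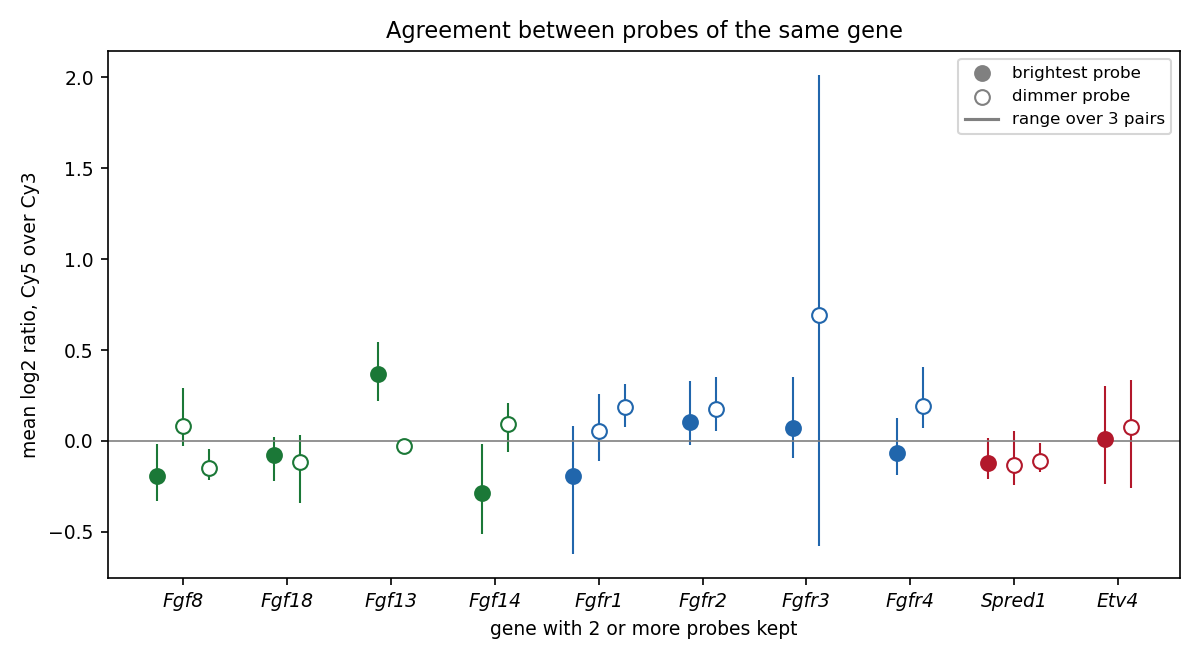
Mean log2 ratio of Cy5 over Cy3 for each kept probe of the 10 genes with more than 1 kept probe; filled points are the brightest probe and lines the range over 3 pairs. The dimmer Fgfr3 probe spans -0.58 to 2.01, and the dimmer Fgf13 probe stays near 0 (mean -0.03) while the brighter one averages 0.37. The dimmer Fgf13 probe was kept through Cy3 alone.

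The feedback and target genes gave 0 of 8 past the threshold, and their mean log2 ratios lay between -0.24 (Spry4) and 0.23 (Spry2). Dusp6, the cytoplasmic phosphatase of ERK, had 22176, 21166 and 20294 in Cy5, against 20962, 26932 and 24602 in Cy3. Cy5 was slightly the brighter in pair 1 and the dimmer in pairs 2 and 3, with log2 ratios of 0.08, -0.35 and -0.28 (mean -0.18 ± 0.11; adjusted p = 0.446). Etv5, an ETS factor induced by FGF, had 26478, 23899 and 25871 in Cy5, against 26170, 27814 and 27482 in Cy3. Its ratios had the same signs over the pairs as those of Dusp6, with a mean of -0.10 ± 0.09 (adjusted p = 0.590).

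Etv4, the related ETS factor, had 9334, 8616 and 6998 in Cy5, against 7569, 8816 and 8259 in Cy3, and its log2 ratios of 0.30, -0.03 and -0.24 averaged 0.01 ± 0.13 (adjusted p = 0.972). The second Etv4 probe, at 0.34, -0.26 and 0.14, differed from the first in the sign of pair 3. Spry1, a Sprouty inhibitor of receptor tyrosine kinase signalling, had 5835, 6313 and 7255 in Cy5, against 5567, 6549 and 7595 in Cy3 (-0.02 ± 0.08, adjusted p = 0.928; 95% interval -0.22 to 0.19). Its channels were close in every pair.

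Spry2, the related inhibitor, had 208, 247 and 198 in Cy5, against 155, 178 and 229 in Cy3 (0.23 ± 0.16, adjusted p = 0.483). Spry4 had 376, 238 and 353 in Cy5, against 339, 334 and 458 in Cy3 (-0.24 ± 0.14, adjusted p = 0.437). Spry2 was the brighter in Cy5 in pairs 1 and 2, and Spry4 in pair 1. Spred1, an inhibitor that acts on RAS activation, had 15342, 17383 and 14938 in Cy5, against 15173, 19682 and 17249 in Cy3 (-0.12 ± 0.09, adjusted p = 0.497), and its other probes averaged -0.13 and -0.11. Spred2 had 826, 564 and 943 in Cy5, against 701, 695 and 679 in Cy3, log2 ratios of 0.24, -0.30 and 0.47 (0.14 ± 0.16, adjusted p = 0.683). The 3 Spred1 probes gave means within a narrow range, whereas Spred2 was dimmer in Cy5 in pair 2 only.

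The pairs differed from each other in the feedback genes. In pair 1, 8 of 8 had a log2 ratio above 0, in pair 2 it was 1 of 8 (Spry2), and in pair 3 it was 1 of 8 (Spred2), against 47.2%, 45.2% and 48.9% of all genes in pairs 1 to 3. Some of these values lay close to 0. In pair 1 Spred1 was at 0.016 and Etv5 at 0.017, and in pair 2 Etv4 was at -0.033 and Spry1 at -0.053. The dimmest Spred1 probe was at -0.17 in pair 1, and with the mean of the probes 7 of 8 genes were above 0 there. The median log2 ratio of the feedback genes was 0.11, -0.20 and -0.21 in pairs 1 to 3, against -0.02, -0.04 and -0.01 for all genes. Dusp6, Spry1, Spry4, Spred1, Etv4 and Etv5, 6 of the 8, were above 0 in pair 1 and below 0 in pairs 2 and 3. The same held for the ligands Fgf4, Fgf5, Fgf10 and Fgf15 and the receptors Fgfr1 and Fgfrl1, in all 12 of 29 members, against 8.1% of all genes. This order of signs was noticed in the values and is a description; it has no test, since with 1 array in each pair it cannot be set against replicates of a pair. With the scanner software's processed signals, or with each array centred on its median in place of loess, the count of feedback genes in this order was 4.

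Over all pairs, the median of the mean log2 ratios was -0.10 for the 16 ligands kept, -0.02 for the 5 receptors and -0.06 for the 8 feedback genes, against -0.02 for all genes tested. Among the ligands, Fgf5, Fgf7, Fgf12 and Fgf22 passed the filter through Cy3 alone, and without the filter the ligand median was 0.036. Of the 29 members, 12 had a mean above 0. The sign was the same in all pairs for 6 members (Fgf7, Fgf8, Fgf13, Fgf14, Fgf17 and Fgf22, that is 20.69%), against 43.4% of all genes. Fgf7 and Fgf22 were kept through Cy3 alone, their brighter channel, so their signs are not independent of the filter. The median SD between pairs was 0.25 for the members, against 0.16 for all genes. Across the 29 members the log2 ratios correlated at 0.12 between pairs 1 and 2, at -0.33 between pairs 1 and 3 and at 0.33 between pairs 2 and 3, against 0.41, 0.33 and 0.15 across all genes. These are correlations across genes that share an array, and genes are not independent replicates.

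**Figure D4:**
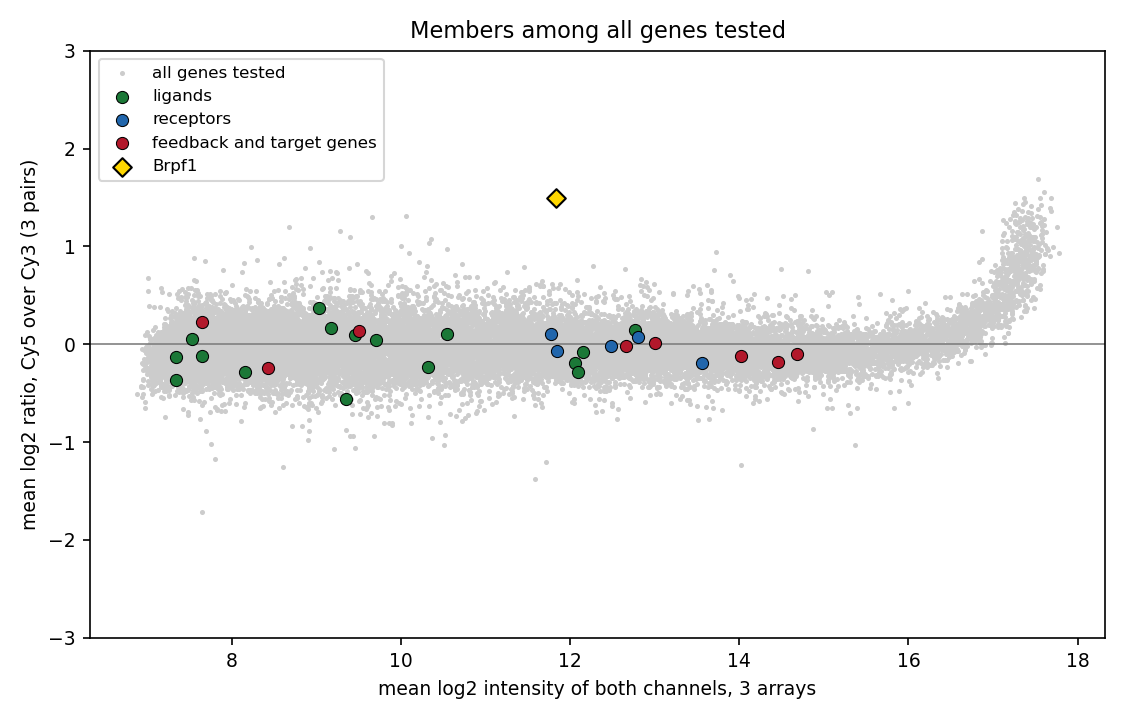
Mean log2 ratio of Cy5 over Cy3 against mean log2 intensity of both channels for all genes tested (grey), with ligands, receptors, feedback and target genes and Brpf1 marked. The 29 members lie between -0.56 and 0.37 within the bulk of the genes, while Brpf1 lies at 1.499.

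The other genes of the pathway were read from 3 lists. Signal transduction from the receptor to ERK was measured through 24 of 25 genes, of which 0 were higher and 0 lower past the threshold (median log2 ratio -0.05). Those with the smallest p were Rps6ka1, a kinase downstream of ERK (-0.23 ± 0.08, adjusted p = 0.245), Frs2, the adaptor of FGF receptors (-0.22 ± 0.08, adjusted p = 0.278), the small GTPase gene Nras (-0.30 ± 0.13, adjusted p = 0.315) and the adaptor Shc1 (-0.22 ± 0.09, adjusted p = 0.318). Frs2 had log2 ratios of -0.26, -0.25 and -0.13, below 0 in each pair.

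Other feedback and ERK-responsive genes gave 0 higher and 0 lower of 21 measured from 22 listed (median -0.08). The early-response gene Ier3 had log2 ratios of -0.42, -1.29 and -0.48 (-0.73 ± 0.19, adjusted p = 0.190), and Mycn, a transcription factor of proliferating progenitors, averaged -0.39 ± 0.14 (adjusted p = 0.268). The nuclear ERK phosphatase gene Dusp4 averaged 0.31 ± 0.11 (adjusted p = 0.270), on the other side of 0 from Dusp6, and Myc -0.28 ± 0.11 (adjusted p = 0.286).

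Cofactors in the membrane and matrix gave 0 higher and 0 lower of 26 measured from 28 listed (median -0.07), with medians of 0.02, -0.30 and 0.09 in pairs 1 to 3. N-cadherin (Cdh2), which can associate with FGF receptors, had log2 ratios of -0.37, -0.53 and -0.38 (-0.42 ± 0.08, adjusted p = 0.125). Gpc6, a heparan sulfate glypican, averaged -0.55 ± 0.15 (adjusted p = 0.199), the syndecan Sdc3 -0.39 ± 0.14 (adjusted p = 0.266), and Klb, the co-receptor of endocrine FGFs, 0.38 ± 0.13 (adjusted p = 0.255). Cdh2 was below 0 in each pair, with the smallest p of any gene in the 3 lists.

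Markers of the embryonic regions that make FGFs differed between the pairs. Of 12 tail bud and primitive streak markers 11 were kept, and their median log2 ratio was -0.07, -0.02 and -0.54 in pairs 1 to 3, with 5, 5 and 0 of 11 above 0. Their summed intensity was 46913, 53217 and 37657 in Cy5, against 47832, 55318 and 56778 in Cy3; Wnt3a was not kept, and Dll1 (-0.41 ± 0.10, adjusted p = 0.165) and Rspo3 (-0.37 ± 0.10, adjusted p = 0.186) had the smallest p. Pair 3, with the dimmest tail bud markers in Cy5, was also the pair with the lowest ratios of Fgf3, Fgf4, Fgf8 and Fgf15. A dimmer Fgf8 probe was at -0.03 in pair 2 and -0.02 in pair 3, so pair 3 was not its lowest. The same pair was lowest for Fgf12, Fgf13, Spry1, Spry2, Spred1 and Etv4, so this was not particular to those ligands. Fgf17, of the same subfamily as Fgf8, was at 0.05, 0.15 and 0.07 in pairs 1 to 3, so pair 3 was not its lowest. Fgf15 was named above for the neural tube and pharyngeal region, not for the tail bud. The part of the tail bud in these values was not tested. Midbrain-hindbrain and anterior neural markers, 11 of 12 kept without En1, had medians of 0.15, -0.09 and -0.05 in pairs 1 to 3 and an overall median of 0.03. The medians of 10 heart field and pharyngeal markers and of 6 limb and lateral plate markers were 0.06 and 0.05.

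Tissues outside the embryo were also represented. All 10 visceral endoderm and yolk sac markers were kept and had mean log2 ratios above 0 (median 0.50, and 0.24, 0.56 and 0.54 in pairs 1 to 3), with a summed intensity of 705203 to 1014656 in Cy5, against 454651 to 748512 in Cy3. Mean log2 intensity was above 17 for 544 genes, Afp and Rbp4 included, and all 544 had a mean log2 ratio above 0 (median 0.75). The median of the other 8 markers was 0.44. These 8 were bright too, with mean log2 intensities from 14.07 (Soat2) to 16.77 (Ttr), and the part of brightness in their ratios was not tested. No yolk sac marker passed the threshold, and Rbp4 (0.81 ± 0.11, adjusted p = 0.0557) and Apom (0.54 ± 0.10, adjusted p = 0.0976) had the smallest p. The 8 decidua and uterus markers summed to 24090 to 54094 in Cy5, against 38659 to 63676 in Cy3, with medians of -0.05, -0.48 and 0.40 in pairs 1 to 3 and 6 of 8 means below 0 (overall median -0.16). Igfbp1 was at 0.84 ± 0.13 (adjusted p = 0.0699), and Prl8a2, at -0.74, -3.55 and 0.60 in pairs 1 to 3, at -1.23 ± 0.77 (adjusted p = 0.447). Of 10 trophoblast markers 7 were kept, without Tpbpa and Psg17 (median 0.06, with sums of 38083 to 49602 in Cy5, against 42825 to 50432 in Cy3). Among those kept, Cdx2 was also counted with the tail bud markers and Hand1 with the limb and lateral plate markers. The part of tissues outside the embryo in the ratios of the FGF genes was not tested. All 8 markers used to check the labelled embryo were kept, namely Sox2, Pax3, Pax6, Meox1, Foxc1 and Hoxb1 and the embryonic globins Hba-x and Hbb-y of primitive red cells, which arise in the yolk sac. Their median log2 ratio was 0.14, 0.41 and -0.04 in pairs 1 to 3, and their summed intensity was 405242, 332156 and 569736 in Cy5, against 710693, 192171 and 250730 in Cy3. The sums were mostly those of Hba-x and Hbb-y, whose mean log2 intensities of 17.39 and 17.29 lay above 17. Among the other genes of the list Meox1 was the brightest, at 13.56. Hbb-y, named after its values were seen, had log2 ratios of -1.62, 1.08 and 1.83, so that pair 1 had the opposite sign to pairs 2 and 3.

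**Figure D5:**
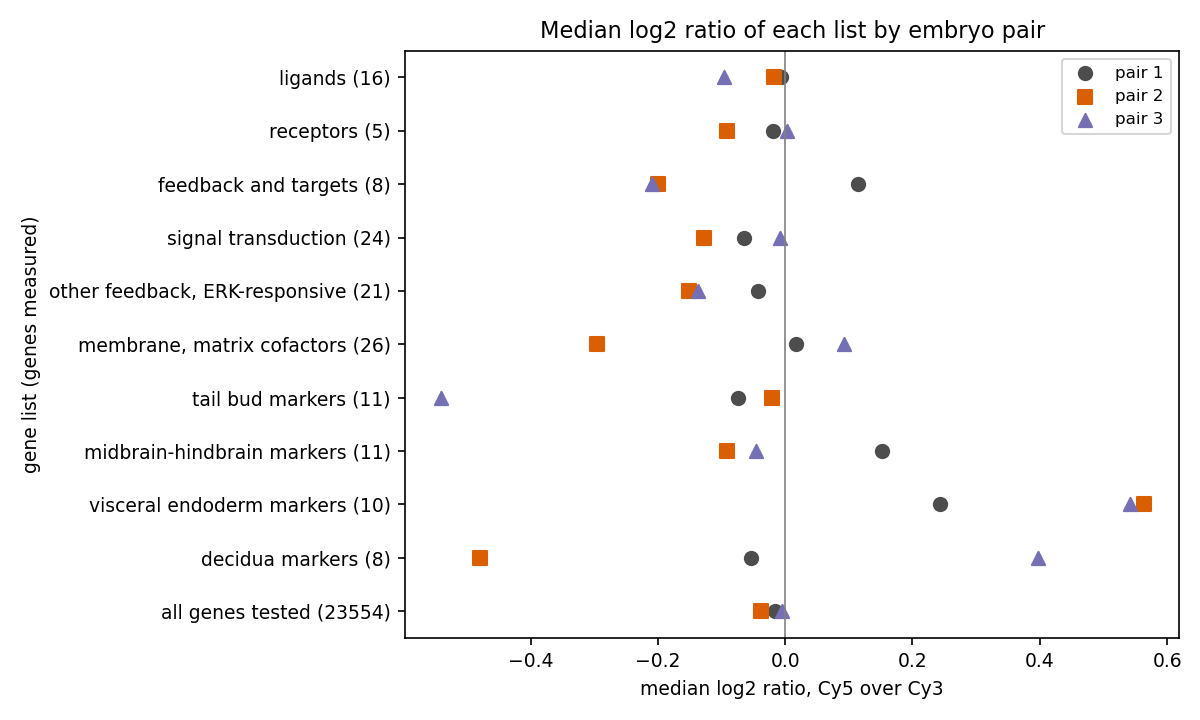
Median log2 ratio of Cy5 over Cy3 in each of the 3 pairs for each gene list, with the number of genes measured in brackets. The feedback genes lie at 0.11 in pair 1 and at -0.20 and -0.21 in pairs 2 and 3, and the tail bud markers at -0.54 in pair 3.

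Brpf1 itself was measured by 1 probe and was brighter in the channel labelled Brpf1-deficient in every pair, with 8637, 6112 and 4433 in Cy5, against 2151, 2270 and 2122 in Cy3 (log2 ratio 1.499 ± 0.19, adjusted p = 0.0404). The adjusted p of Brpf1 was above 0.05 under 10 of 14 alternatives. The probe's place relative to the altered part of the gene is not known here, so Brpf1 does not check the labels. Whether the labels of the channels were exchanged was not tested. Every direction above is that of the channels as labelled. Of the non-control probes, 27480 to 28904 were well above background in Cy5, against 30198 to 33324 in Cy3, and local background medians were 134.5 to 161.5 in Cy5, against 52 to 58 in Cy3. Among the dim ligands, Fgf7 and Fgf22 were well above background in Cy3 alone, and the part of the channels' backgrounds in this was not tested.

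The authors' deposited table listed 38 of the 55 member probes, with a smallest adjusted p of 0.341, for an Fgf2 probe that was well above background on no array. Of the 32 listed probes that were kept, 31 had the opposite sign in the authors' deposited table, whose ratio ran as Cy3 over Cy5 (correlation -0.802 over 39915 shared probes).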

How the data were processed

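Total RNA (350 ng) was amplified once and coupled to Cy dyes, per the labels' protocols. Feature Extraction 10.7.3.1 read the scans, per the file headers; its output gives the linear median intensity of spots and local background, processed intensity values and log10 ratios of Cy5 over Cy3. The authors' deposited table holds a log2 ratio, a mean log2 intensity, p-values, a moderated t and a log odds score; the submitters' processing notes name limma, with no settings.

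Here, limma 3.58.1 in R 4.3.3 corrected the median signals by normexp (offset 50) and normalised within arrays by loess (span 0.3, controls and outlier spots at weight 0). Normalised intensities were scaled between arrays by Aquantile. Spots of a probe were averaged, probes passing the background filter were kept, and the brightest probe stood for its gene. Accessions were named through RefSeq, which named 15382 of the 23554 genes tested. The model held the mean of 3 pairs, tested with lmFit and eBayes at an adjusted p of 0.05, and was tested on simulated data. The members and all lists were chosen with earlier results of these data known. Every member gene is named, kept or not, and from each list the genes with the smallest p. All arrays lay on 1 slide with 1 scan time, so no batch could be tested, and the number of arrays limits the precision. Alternatives covered the span, background, scaling, filter, probe choice, prior and leaving out each pair.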

Additional observations from a re-analysis of the deposited data

How the results depend on the processing

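The number of FGF genes past the threshold was 0 under all 14 alternatives, with a smallest adjusted p of 0.106 (no filter on dim probes) to 0.363. Of 405 member values, 376 kept their sign and 29 changed it. Many of the 376 could not change. The changed filters, the test of all probes, leaving out bright genes and the changed prior gave members their main log2 ratios again. Fgf22 had no value where a spot had to be well above background on all 3 arrays. The count over all genes, 326, became 0 with loess span 0.02, with the processed signals and with genes above a mean log2 intensity of 17 left out (3508, 3454 and 3574 at an unadjusted p under 0.05 by limma), 193 with normexp offset 16, 651 with median centring, 201 with the mean of the probes and 156 with a trended, robust prior, and it was 0 to 0 when 1 pair was left out (2145, 3830 and 3408 at an unadjusted p under 0.05 without pairs 1, 2 and 3). Brpf1 lay between 1.25 and 1.72 under 14 alternatives and passed the threshold under 4 of them; under the other 10 its adjusted p was 0.0513 to 0.273.

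The ligand median moved to -0.15 with the processed signals and 0.036 without the filter, and the receptor median to -0.12 with median centring and 0.064 with the mean of the probes. Leaving out 1 pair gave medians of -0.12 to -0.028 for ligands, -0.067 to 0.00096 for receptors and -0.14 to -0.017 for feedback genes. Signs changed with loess span 0.02 for Fgfrl1 (0.012) and Spry1 (0.010), with the processed signals for Fgf12 (-0.19) and Fgfrl1 (0.0042), without background correction for Fgf12 (-0.041), and with the mean of the probes for Fgfr1 (0.015) and Fgfr4 (0.064). Median centring, which left the median of all genes at -0.21 in pair 2, changed Fgf17 (-0.016), Fgf3 (-0.078), Fgf9 (-0.039), Fgfr2 (-0.024), Fgfr3 (-0.0068), Etv4 (-0.057) and Etv5 (0.040). Without 1 pair, values ranged from -0.92 to -0.21 for Fgf4, -0.43 to -0.04 for Fgf15, and, with changes of sign, from -0.16 to 0.34 for Fgf3, -0.14 to 0.13 for Etv4, -0.36 to 0.038 for Fgf5, -0.0016 to 0.26 for Fgf23, -0.0034 to 0.088 for Fgf12, -0.33 to 0.021 for Fgfr1, -0.0083 to 0.17 for Fgfr2, -0.064 to 0.00096 for Fgfrl1, -0.060 to 0.0074 for Spry1, -0.00017 to 0.25 for Fgf9, -0.15 to 0.44 for Fgf1, -0.067 to 0.15 for Fgfr3 and -0.032 to 0.36 for Spred2. The cause was not tested. The count of feedback genes above 0 in pair 1 and below 0 in pairs 2 and 3, looked at after the values were seen, was 6, and 4 to 6 under 9 alternatives. Each array held both RNAs of a pair, so every fit was already paired within arrays.

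With 3 pairs and 1 dye orientation, dye and genotype cannot be told apart. Fgf7 and Fgf22 were not well above background in Cy5, which limits what their ratios show.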
